A study of Mus musculus with 10 samples.

Results

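The ErbB family comprises 4 receptor tyrosine kinases, and 10 genes were followed here: the receptors Egfr, Erbb2, Erbb3 and Erbb4, and the ligands Areg, Ereg, Hbegf, Tgfa, Btc and Nrg1. They were picked by name and found by Ensembl identifier among the 37417 genes of a count table, which held all 10 of them. The table came from bulk RNA-seq of 10 subcutaneous (s.c.) tumors grown from Panc02, a mouse pancreatic cancer cell line. Cancer cells of 5 tumors carried a guide RNA against Cda (sgCda), the gene for cytidine deaminase, and those of the other 5 a nontargeting guide (sgNT). In both groups the cells had received a doxycycline-inducible Cas9 by lentivirus. The methods describe cloning by limiting dilution, and the sources used here do not say whether the cells of these tumors were cloned. Hosts were C57BL/6J mice, 12 weeks old per the labels, and tumors were taken on day 16. The genotype label reads wild type for every tumor of both groups, so groups came from the sample titles.

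ErbB receptors work as dimers. Ligand binding to EGFR, ERBB3 or ERBB4 lets the receptors pair and phosphorylate each other, and the signal runs through adaptor proteins to the RAS-ERK and PI3K-AKT cascades. ERBB2 has no known ligand and acts as a partner, while ERBB3 has little kinase activity of its own. Ligands are made as membrane-bound precursors that ADAM proteases release, and negative regulators such as ERRFI1 damp the receptors. In pancreatic cancer this family is known as a growth signal of the tumor cells.

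The groups are named by the guide their cancer cells received, so both guides are shown first, as the study's list of oligonucleotides gives them. Cells of each group were transduced with their own guide and then selected, so guide and cell derivation cannot be told apart. The sgCda guide is the one the study numbered 2. It matches exon 2 of the 4 exons of a Cda transcript at chr4:138351219-138351238 (GRCm38), and the capitals mark the 3 bases that follow the match in the transcript, which form the PAM that Cas9 needs. The nontargeting guide was not found in any Cda transcript.
sgCda guide and PAM: tccagaaggccatctccgaaGGG
sgNT guide: gaacagtcgcgtttgcgact

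Libraries held 28051907 to 39484964 counts assigned to genes. Levels are given as CPM, the count over the library size in units of 1e+06 counts, with library sizes scaled by trimmed mean of M values (TMM). Replicate 4 of the sgCda tumors stood apart, with the largest share of reads outside genes (18.4%, against 10.3% to 14.9% in the others) and of mitochondrial counts (5.82%, against 3.47% to 3.81%). Replicate 3 of the sgCda tumors held the most skeletal muscle RNA, where 6 muscle genes summed to 1800 CPM, and replicate 5 the least, 2.50 CPM. Levels of Cda ran from 10.1 to 14.7 CPM in sgNT and from 7.47 to 12.5 CPM in sgCda tumors. Of 5 sgCda tumors 2 lay inside the sgNT range and the others below it, so the transcript did not fully separate the groups. Its log2 fold change, sgCda minus sgNT, was −0.30 (SE 0.17; edgeR test described below, unadjusted p = 0.0963, adjusted 0.9996). In the cells, the paper checked targeting by RT-qPCR and western blot. The cytokeratin genes Krt8 (353 to 645 CPM) and Krt18 (157 to 325 CPM), which mark epithelial cells, were counted in every tumor, while Epcam was low (0.911 to 3.43 CPM). A whole tumor mixes cancer and host cells, so fewer cells of a type and less RNA per cell cannot be told apart.

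Among the receptors, Egfr was the most abundant, Erbb2 came next, Erbb3 was low and Erbb4 was close to absent. Among the ligands followed here, Hbegf led, Areg and Ereg came next at like levels, and Nrg1, Btc and Tgfa were lower. To compare genes, CPM was divided by the kilobases (kb) of exon that each gene has in the annotation. On this scale Egfr had a level of 18.2 ± 4.12 CPM per kb (mean ± SD, n = 10 tumors) and Erbb2 one of 8.92 ± 0.854. Egfr was above Erbb2 in all 10 tumors, although their ranges over tumors overlapped. Hbegf stood at 5.68 ± 1.26 CPM per kb, Areg at 3.22 ± 1.46 and Ereg at 2.83 ± 0.985. Areg exceeded Ereg in 4 of 10 tumors only, so this pair of neighbors in the order did not differ beyond their spread. Nrg1 (0.750 ± 0.128 CPM per kb) was above Erbb3 (0.461 ± 0.0673) in all 10 tumors, and Erbb3 above Btc (0.252 ± 0.102) in 9. Tgfa was lowest of the 9 genes tested here, at 0.0687 ± 0.0260 CPM per kb. The place of a gene depends on which exons are used in the tumor. With the longest coding transcript as the length, Hbegf (11.6 CPM per kb) passed Erbb2 (9.27 CPM per kb), and the other 8 genes kept their places.

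**Figure D1:**
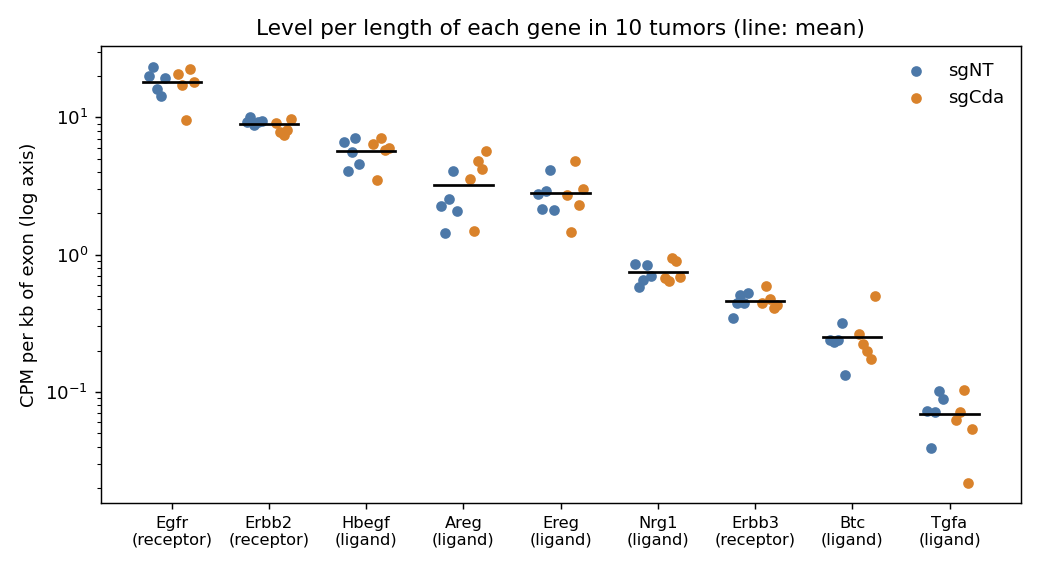
Level of the 9 tested ErbB genes in CPM per kb of exon, on a log axis, with a point for each of 10 tumors, sgNT in blue and sgCda in orange, and a line at the mean. Genes are ordered by their mean, from Egfr (18.2) to Tgfa (0.0687), and the colors mix in every gene.

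Receptor transcripts were therefore mostly Egfr. Its share of the summed level per kb of the 4 receptors had a median of 66.6%, from 54.7% in sgCda replicate 3 to 72.5% in sgCda replicate 4. Erbb2 made up a median of 31.7% and Erbb3 one of 1.65%. Egfr shares averaged 65.1% ± 3.79 (sgNT) and 65.4% ± 6.71 (sgCda; SD, n = 5 each), a difference smaller than either SD. Of the summed level of the 6 ligands, Hbegf held a median of 46.9%, Areg 23.2% and Ereg 21.6%. The share of Areg averaged 20.4% ± 3.17 (sgNT) and 27.9% ± 5.83 (sgCda; SD, n = 5 each). That of Hbegf was 47.2% ± 3.23 and 43.0% ± 4.36, and that of Ereg 23.5% ± 1.79 and 20.4% ± 3.65. The shares make up a whole, so a higher share of 1 ligand lowers those of others. Hbegf itself had means of 27.0 (sgNT) and 28.0 CPM (sgCda). These shares are given as a description, without a test.

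To ask whether targeting Cda in the cancer cells went with a change in this family, the groups were set against each other in a quasi-likelihood test (edgeR) over 15299 genes. Of the 10 genes 9 passed the expression filter and Erbb4 did not. None of the 9 passed the test: 0 had an adjusted p under 0.05 and 0 an unadjusted p under 0.05, where 0% and 2.5% of all genes tested did (0 and 382 genes; DESeq2 and limma-voom also gave 0 adjusted calls). In 0 of the 9 genes were the groups free of overlap, against 0.601% of all genes. Log2 fold changes, sgCda minus sgNT, were above 0 in 6 and below 0 in 3, with a median of 0.052, against 0.0078 over all genes. The adjusted p was 0.9996 for each of the 9.

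**Figure D2:**
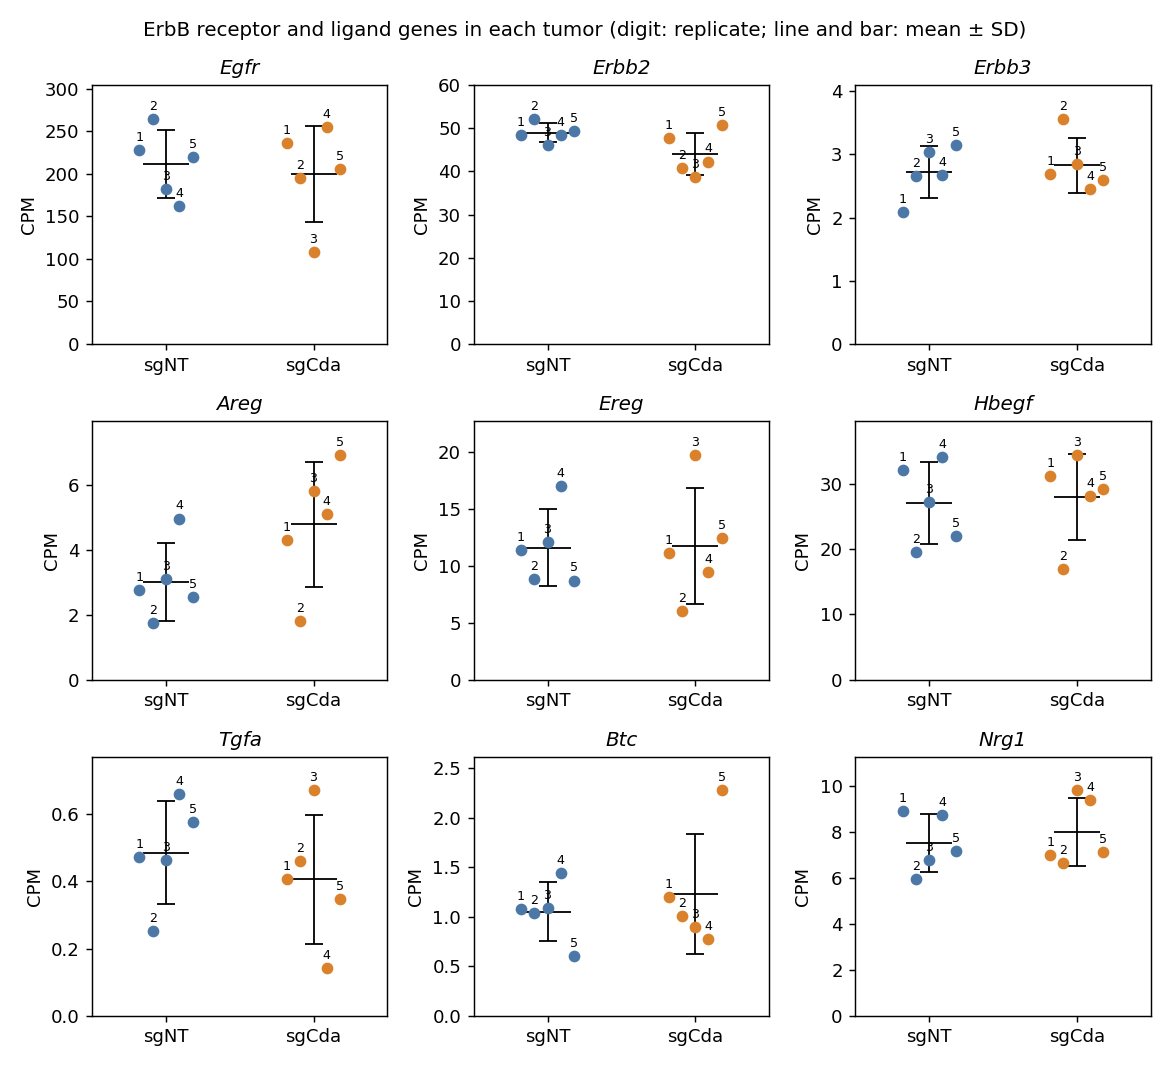
CPM of the 9 tested genes in each tumor, sgNT in blue and sgCda in orange, with the replicate number above each point and mean ± SD as line and bar. The groups overlap in every panel, and sgCda replicate 3 is the lowest point for Egfr and the highest for Ereg, Hbegf, Tgfa and Nrg1.

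Egfr (ENSMUSG00000020122, chromosome 11, 16752203 to 16918158, GRCm38 as for all positions here) encodes the receptor of amphiregulin, epiregulin, HB-EGF, TGF-alpha and betacellulin. In replicates 1 to 5 of the sgNT tumors it stood at 229, 265, 182, 163 and 220 CPM, and in those of the sgCda tumors at 236, 196, 108, 255 and 205 CPM. The lowest value, that of sgCda replicate 3, lay below every sgNT tumor and the other 4 sgCda tumors fell inside the sgNT range. Group means were 212 ± 40.2 and 200.0 ± 56.6 CPM (SD, n = 5 each), with a log2 fold change of −0.084 (SE 0.21, 95% CI −0.54 to 0.37; edgeR, unadjusted p = 0.696). Its interval spans changes from −31.3% to 29.6%. By mean log2 CPM, Egfr ranked above 94.1% of the genes tested. Without sgCda replicate 3 its log2 fold change turned to 0.073. In that tumor the 6 muscle genes were highest in sum, the 5 T cell genes summed to 494 CPM, against 199 to 326 CPM in the sgNT tumors, and the 5 neutrophil genes to 49.4 CPM, the lowest of the 10.

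Erbb2 (ENSMUSG00000062312, chromosome 11, 98412470 to 98437716), the partner receptor without a ligand, was the steadiest of the 9 between tumors. It stood at 48.4, 52.2, 46.1, 48.5 and 49.5 CPM in sgNT replicates 1 to 5, and at 47.6, 40.9, 38.7, 42.3 and 50.7 CPM in sgCda replicates 1 to 5. Replicates 2, 3 and 4 of the sgCda tumors lay below all sgNT tumors, whereas replicates 1 and 5 lay among them. Means were 48.9 ± 2.22 and 44.0 ± 4.96 CPM (SD, n = 5 each), a log2 fold change of −0.15 (SE 0.080, 95% CI −0.33 to 0.024; edgeR, unadjusted p = 0.0838). This was the smallest p of the 9, and the interval spans changes from −20.4% to 1.68%. Without sgCda replicates 3 and 4 together the log2 fold change was −0.079 (edgeR, unadjusted p = 0.340, adjusted p = 0.996). Without sgCda replicate 5, the highest sgCda tumor, it was −0.21 (edgeR, unadjusted p = 0.0177, adjusted p = 0.998). That drop was bound to enlarge the difference.

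Erbb3 (ENSMUSG00000018166, chromosome 10, 128567523 to 128589652), a neuregulin receptor, was counted 62 to 131 times per library. Levels were 2.09, 2.65, 3.04, 2.67 and 3.14 CPM in sgNT and 2.68, 3.56, 2.85, 2.44 and 2.59 CPM in sgCda replicates 1 to 5. All but the highest value, that of sgCda replicate 2, fell within the sgNT range. Erbb3 thus had a log2 fold change of 0.057 (SE 0.17, 95% CI −0.31 to 0.43; edgeR, unadjusted p = 0.742), and it turned to −0.038 without that tumor.

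Erbb4 (ENSMUSG00000062209, chromosome 1, 68032186 to 69108059), the other neuregulin receptor, had 3 counts over all 10 libraries, 2 in sgCda replicate 2 and 1 in sgCda replicate 4. The other 8 tumors had a count of 0, which allows a level of up to 3 counts. Over all 10 libraries 3 counts stand for 0.0754 to 0.106 CPM, by library size. No fold change is given.

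**Figure D3:**
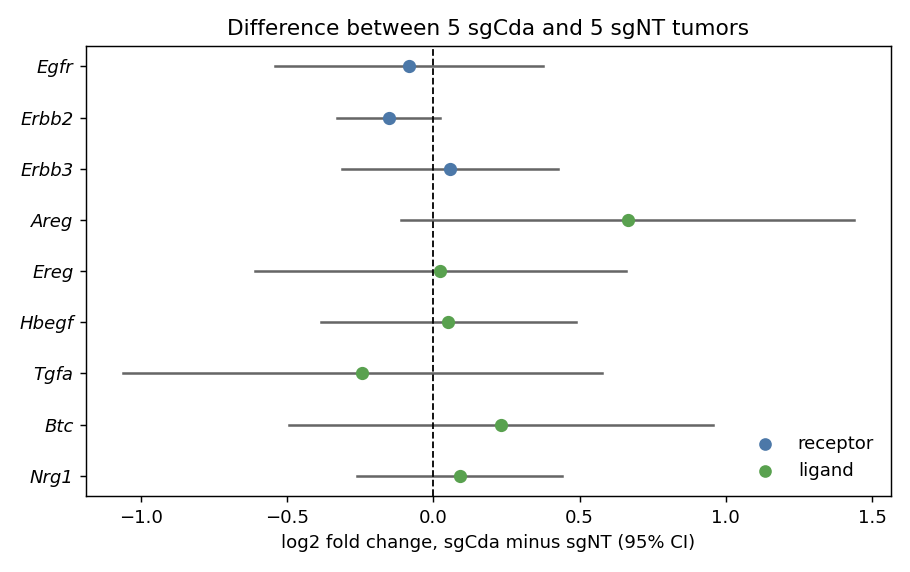
Log2 fold change of the 9 tested genes, sgCda minus sgNT, with its 95% confidence interval from the edgeR fit, receptors in blue and ligands in green. Every interval crosses 0, from the narrowest, Erbb2 (−0.33 to 0.024), to the widest, Tgfa (−1.06 to 0.58).

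Areg (ENSMUSG00000029378, chromosome 5, 91139599 to 91148432) encodes amphiregulin, an EGFR ligand, and had the largest fold change of the 9. In sgNT replicates 1 to 5 it stood at 2.76, 1.74, 3.10, 4.96 and 2.54 CPM, and in sgCda replicates 1 to 5 at 4.29, 1.82, 5.82, 5.10 and 6.93 CPM. Replicates 3, 4 and 5 of the sgCda tumors lay above all sgNT tumors, and replicate 2 was close to the lowest tumor of the series. Means were 3.02 ± 1.20 and 4.79 ± 1.92 CPM (SD, n = 5 each), with 4 of 5 sgCda tumors above the sgNT mean. This gave a log2 fold change of 0.66 (SE 0.35, 95% CI −0.11 to 1.44; edgeR, unadjusted p = 0.0853, adjusted 0.9996), or 58.5% (−7.27% to 170.9%). Without sgCda replicate 2, the lowest sgCda tumor, it was 0.88 (edgeR, unadjusted p = 0.0103, adjusted 0.999). Without sgCda replicate 5, the highest, it was 0.50 (edgeR, unadjusted p = 0.203, adjusted 0.998). Leaving out the lowest or highest tumor of a group was bound to move the difference, so these values describe only how much it depends on them.

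As Areg had the largest fold change of the 9, the 250 bases before its start (RefSeq, GRCm38.p6, chr5:91139349-91139598, plus strand) are shown. Capitals mark a CRE sequence, TGACGTCA, whose first base lies 61 bases before the start, and a TATA box sequence, TATAAA, at 31 bases.
Areg upstream region: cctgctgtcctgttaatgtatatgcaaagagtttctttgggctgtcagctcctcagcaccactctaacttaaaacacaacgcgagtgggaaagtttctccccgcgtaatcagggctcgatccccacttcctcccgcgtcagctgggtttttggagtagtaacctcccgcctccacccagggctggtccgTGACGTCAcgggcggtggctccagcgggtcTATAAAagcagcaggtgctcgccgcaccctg
These motifs were chosen after the sequence was seen. Searched on both strands in windows of the same length before 27025 genes, TGACGTCA was found in 1.62%, TATAAA in 13.0% and the AP-1 motif TGANTCA in 6.87%. RefSeq entries were matched for 6 of the 10 genes. Of these Areg alone held a match, for 2 of the 3 motifs, and Egfr, Erbb2, Erbb4, Tgfa and Btc held none. GC contents of the Egfr, Erbb2 and Tgfa windows were 60.8%, 66.0% and 69.2%. Those of Btc, Areg and Erbb4 were 59.6%, 57.2% and 54.0%. All lay above the median of 52.0% over all genes. Ereg, Hbegf, Erbb3 and Nrg1 had no entry.

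Ereg (ENSMUSG00000029377, chromosome 5, 91074622 to 91093646), the gene of epiregulin, lies 45952 bases before Areg on the same strand, and Btc lies 208828 bases beyond Areg on the other strand. Ereg stood at 11.4, 8.84, 12.1, 17.0 and 8.72 CPM in sgNT and at 11.1, 6.01, 19.8, 9.49 and 12.5 CPM in sgCda replicates 1 to 5. The highest and the lowest tumor of the series were both sgCda tumors, replicates 3 and 2. Between groups Ereg differed by a log2 fold change of 0.024 (SE 0.29, 95% CI −0.61 to 0.66; edgeR, unadjusted p = 0.936) and was −0.25 without sgCda replicate 3. Of its exonic bases, 141 are shared with a gene on the other strand, and the strand setting of the counting was not given in the sources used here.

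Hbegf (ENSMUSG00000024486, chromosome 18) encodes HB-EGF, a heparin-binding ligand of EGFR and ERBB4. Levels were 32.1, 19.6, 27.2, 34.0 and 22.0 CPM in sgNT and 31.2, 17.0, 34.4, 28.1 and 29.1 CPM in sgCda replicates 1 to 5. Again sgCda replicate 3 was the highest and sgCda replicate 2 the lowest of the 10. For Hbegf the log2 fold change came to 0.052 (SE 0.20, 95% CI −0.39 to 0.49; edgeR, unadjusted p = 0.800), with a change to −0.035 without sgCda replicate 3.

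Nrg1 (ENSMUSG00000062991, chromosome 8, 31814551 to 32884029) encodes neuregulin 1, a ligand of ERBB3 and ERBB4. It stood at 8.90, 5.97, 6.79, 8.76 and 7.19 CPM in sgNT and at 7.0, 6.66, 9.82, 9.39 and 7.15 CPM in sgCda replicates 1 to 5. Replicates 3 and 4 of the sgCda tumors exceeded every sgNT tumor and the other 3 did not. Nrg1 gave a log2 fold change of 0.090 (SE 0.16, 95% CI −0.26 to 0.44; edgeR, unadjusted p = 0.585), and −0.12 without these 2 tumors. The annotation gives it 18 transcripts, which gene counts do not tell apart.

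Btc (ENSMUSG00000082361, chromosome 5, 91357261 to 91402994), the gene of betacellulin, and Tgfa (ENSMUSG00000029999, chromosome 6, 86195223 to 86275719), the gene of TGF-alpha, were the lowest of the 9. Btc was counted 22 to 72 times per library, between 0.603 and 1.44 CPM (sgNT) and between 0.779 and 2.28 CPM (sgCda). Its highest value was sgCda replicate 5, which stood above every other tumor. Its log2 fold change reached 0.23 (SE 0.33, 95% CI −0.49 to 0.95; edgeR, unadjusted p = 0.498), and −0.11 without that tumor. Tgfa was counted 4 to 24 times, between 0.253 and 0.660 CPM (sgNT) and between 0.142 and 0.671 CPM (sgCda). Both the lowest (replicate 4) and the highest value (replicate 3) were of sgCda tumors. Tgfa had a log2 fold change of −0.24 (SE 0.37, 95% CI −1.06 to 0.58; edgeR, unadjusted p = 0.528), and −0.036 without sgCda replicate 4. Its interval spans changes from −52.1% to 49.1%. With 118 exonic bases in Tgfa and 482 in Nrg1 shared with a gene on the other strand, part of their counts is uncertain too.

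Next, genes around the receptors were examined in 5 lists of 61 genes in all, of which 59 were tested. As in the family itself, 0 of the 59 had an adjusted or an unadjusted p under 0.05 and in 0 did the groups not overlap. Their median log2 fold change was −0.040, with 21 above and 38 below 0, against 0.0078 and 52.9% above 0 over all genes.

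Other EGF-like ligands were mostly low. Nrg2, a neuregulin, led, at means of 12.8 ± 1.99 (sgNT) and 11.8 ± 1.49 CPM (sgCda; SD, n = 5 each; log2 fold change −0.12, SE 0.13). Its mean level of 3.91 CPM per kb was above those of Areg, Ereg and Nrg1 and below that of Hbegf. Areg ran from 1.43 to 5.70 CPM per kb over tumors, so its place against Nrg2 lies within that spread. Nrg4, with 0.638 ± 0.177 and 0.962 ± 0.551 CPM, had the smallest p of its list (log2 fold change 0.59, 95% CI −0.26 to 1.44; edgeR, unadjusted p = 0.152), with 3 of 5 sgCda tumors above the sgNT mean. Too few counts for a test were found for Epgn (33) and Nrg3 (1).

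Of the 8 sheddases and their partners, 2 had a fold change above 0 and 6 below, with a median of −0.056. Adam17, the protease that releases most EGFR ligands, stood at 153 ± 6.04 and 147 ± 9.07 CPM (SD, n = 5 each; log2 fold change −0.061, 95% CI −0.19 to 0.068; edgeR, unadjusted p = 0.320). Adam10, which cleaves betacellulin and EGF, had the highest level per kb of the list (46.3 CPM per kb) and a log2 fold change of −0.027 (95% CI −0.17 to 0.12).

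In the list of 20 adaptors and kinases, fold changes ran from −0.12 (Src, a kinase that acts beside the receptors; edgeR, unadjusted p = 0.126) to 0.14 (Plcg1, a phospholipase that binds EGFR), with 7 above and 13 below 0. Genes at the ends of a range were named after their values were seen. Akt1 had the highest level per kb, 79.5, with means of 339 ± 27.6 (sgNT) and 313 ± 40.3 CPM (sgCda; SD, n = 5 each; log2 fold change −0.12, 95% CI −0.33 to 0.099).

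Negative regulators had 6 genes with a fold change above 0 and 9 below. Errfi1, which binds and inhibits the EGFR kinase, was the most abundant per kb of its 15 genes (117 CPM per kb), at 416 ± 49.6 and 426 ± 79.6 CPM (SD, n = 5 each; log2 fold change 0.035, 95% CI −0.26 to 0.33). Cbl, a ubiquitin ligase that directs EGFR to degradation, had the smallest p there (log2 fold change −0.17, 95% CI −0.41 to 0.081; edgeR, unadjusted p = 0.167). Among the 13 ERK-induced genes 4 had a fold change above 0 and 9 below, from −0.25 (Fos) to 0.058 (Etv4). Ccnd1, the gene of cyclin D1, had both the smallest p and the highest level per kb (110.0), at 541 ± 75.7 and 495 ± 118.7 CPM (log2 fold change −0.13, 95% CI −0.47 to 0.21; edgeR, unadjusted p = 0.415).

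**Figure D4:**
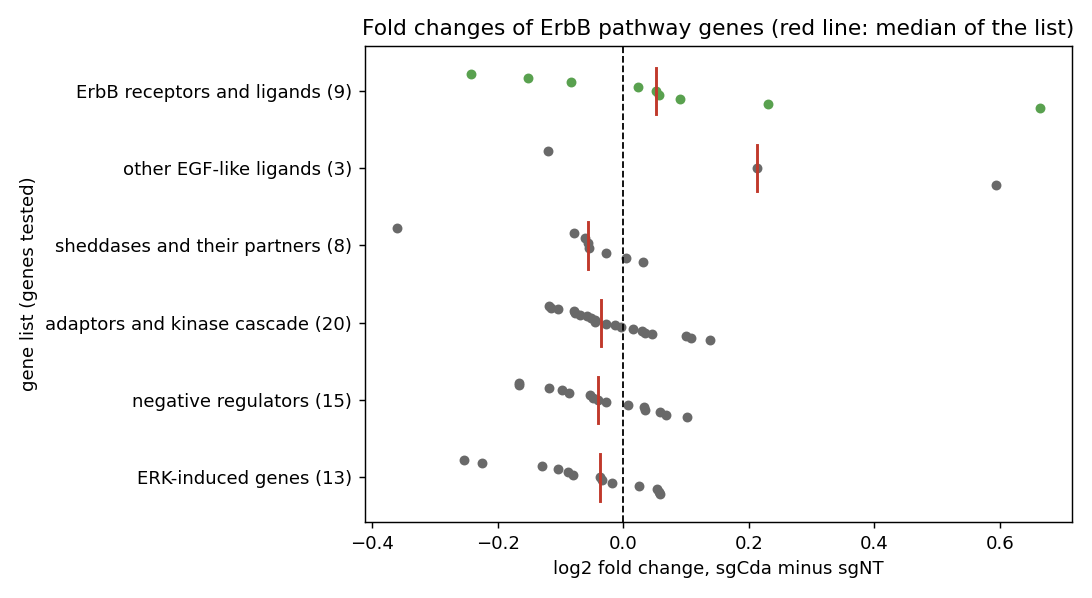
Log2 fold change, sgCda minus sgNT, of the 9 tested ErbB genes (green) and of 59 genes in 5 lists around them (gray), with the number tested in parentheses and a red line at each median. Medians lie between −0.056 and 0.21, and Areg (0.66) is farthest to the right.

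The spread between tumors differed among the 9 genes. The biological coefficient of variation in the edgeR fit was 0.110 in Erbb2, 0.200 in Nrg1, 0.209 in Erbb3, 0.228 in Hbegf, 0.235 in Egfr, 0.327 in Ereg, 0.350 in Tgfa, 0.362 in Btc and 0.398 in Areg, against a median of 0.158 over all genes. Areg was more variable than 90.8% of the genes tested and Erbb2 than 21.4%. Between the highest and the lowest tumor, Tgfa differed 4.74-fold, Areg 3.99-fold, Ereg 3.29-fold, Egfr 2.45-fold and Erbb2 1.35-fold. The lowest library of Tgfa held 4 counts.

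To see whether the genes varied together, Pearson's r was computed on log2 CPM over the 10 tumors for all 36 pairs of the 9 genes. In 1 pair the adjusted p was under 0.05: Ereg and Hbegf had an r of 0.88 (permutation test, p = 0.00034, adjusted over 36 pairs 0.0122) and a Spearman's rho of 0.85 (permutation p = 0.00278, adjusted 0.100). With the group means removed their r was 0.88. Without sgCda replicates 2 and 3, the 2 tumors with Ereg farthest from its median, r was 0.78 (n = 8, exact permutation p = 0.0198, adjusted 0.515), and the adjusted p was no longer under 0.05 with fewer tumors. Areg had an r of 0.80 with Hbegf (permutation p = 0.00485, adjusted 0.0873; rho 0.70, p = 0.0307) and of 0.73 with Ereg (permutation p = 0.0153, adjusted 0.184; rho 0.76, p = 0.0151), and neither passed the adjusted threshold. Without the 2 tumors of most extreme Areg these were 0.52 and 0.53. Egfr had a negative r with Ereg (−0.69, permutation p = 0.0305, adjusted 0.208; rho −0.60, p = 0.0727), which was −0.034 without sgCda replicate 3 and sgNT replicate 4. Egfr and Tgfa had an r of −0.69 too (permutation p = 0.0347, adjusted 0.208; rho −0.77, p = 0.0127), and −0.63 without the same tumors. Hbegf and Nrg1 had one of 0.72 (permutation p = 0.0214, adjusted 0.193; rho 0.75, p = 0.0174), and 0.55 without sgCda replicate 2 and sgNT replicate 2.

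**Figure D5:**
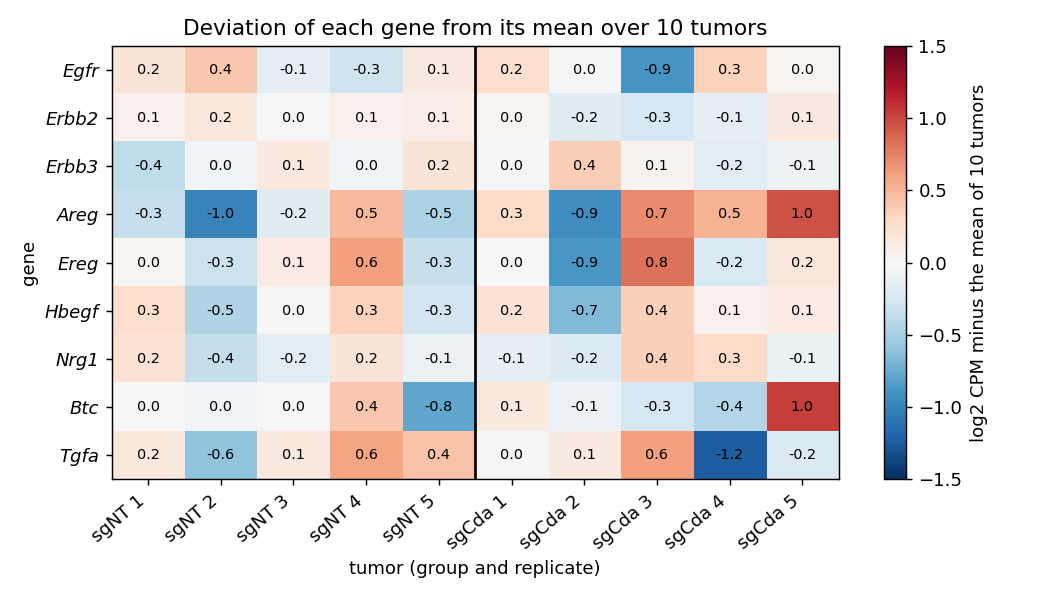
Log2 CPM of each of the 9 tested genes (rows) in each tumor (columns) minus its mean over 10 tumors, red for above and blue for below, with sgNT on the left of the black line and sgCda on the right. Areg, Ereg and Hbegf are all low in sgNT replicate 2 and sgCda replicate 2 and all high in sgNT replicate 4 and sgCda replicate 3.

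Markers of 10 cell types were set beside the 9 genes in the same way. Of the 90 relations 0 had an adjusted p under 0.05 in the permutation test, and 6 an unadjusted p under 0.05. The closest were Tgfa with the endothelial score (r = 0.80, permutation p = 0.00224, adjusted 0.202; rho 0.90, p = 0.00084, adjusted 0.0756) and Tgfa with the macrophage score (r = 0.76, permutation p = 0.00821, adjusted 0.366; rho 0.65, p = 0.0489). Without sgCda replicate 4 and sgNT replicate 2 these were 0.83 and 0.27. Egfr had an r of 0.76 with the neutrophil score (permutation p = 0.0141, adjusted 0.366; rho 0.41, p = 0.250), −0.71 with the T cell score (permutation p = 0.0252, adjusted 0.453; rho −0.41, p = 0.250) and −0.69 with the skeletal muscle score (permutation p = 0.0163, adjusted 0.366; rho −0.61, p = 0.0651). Without sgCda replicate 3 and sgNT replicate 4 these were −0.15, −0.46 and −0.44 (n = 8; exact permutation p = 0.724, 0.256 and 0.269). The relation with the neutrophil score thus changed sign without those tumors. Those with the T cell and skeletal muscle scores kept their sign, but their unadjusted p was no longer under 0.05. Erbb2 had an r of −0.68 with the skeletal muscle score (permutation p = 0.0359, adjusted 0.491; rho −0.67, p = 0.0393), and −0.47 without sgCda replicates 2 and 3. Summed over 6 muscle genes, levels ran from 2.62 to 447 CPM (sgNT) and from 2.50 to 1800 CPM (sgCda). Of the 6 keratinocyte genes 1 passed the filter, and the 6 summed to between 4.31 and 24.1 CPM (sgNT) and between 3.53 and 5.67 CPM (sgCda).

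The genes most like each of the 9 were found by Pearson's r over the 10 tumors, with group means removed, among 12241 other genes. They are given without a test. Each is among the highest of 12241 values over few tumors, where unrelated genes can also reach a high r. How high was not computed. For Egfr they were Lrp4 (r = 0.99) and Pcdhb21 (0.99), the latter of a gene cluster with similar copies and so of uncertain count. Both were lowest in sgCda replicate 3 and highest in sgCda replicate 4. For Erbb2 they were Wwtr1 (0.99) and C77080 (0.98), for Erbb3 Hacd2 (0.89), and for Areg an unnamed gene, ENSMUSG00000090867 (0.96), and Stc2 (0.96). Ereg was closest to Mapk6 (0.97) and Epha2 (0.97). Epha2 is also in the list of ERK-induced genes, and a link of Ereg with that list was not tested. Epha2 ran from 47.1 CPM in sgCda replicate 2 to 89.6 CPM in sgNT replicate 4. Hbegf was closest to Cldn5 (0.95) and Ptgs2 (0.94), Nrg1 to Ajuba (0.95) and Ankrd1 (0.92), Btc to Rspry1 (0.94) and Glce (0.92), and Tgfa to Calcrl (0.98) and Bicc1 (0.98).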

How the data were processed

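Bulk RNA-seq of 5 sgNT and 5 sgCda tumors was analyzed, each from the right flank of a mouse, with groups and replicate numbers from the sample titles. The authors deposited raw counts per Ensembl gene, which they made with a stranded mRNA kit, the first 50 bases of each fragment, the Bowtie TopHat pipeline on GRCm38/mm10 and HTSeq (07.2 in the submitters' processing notes, which also list FastQC 0.11.5). The strand setting and annotation release were not given in the sources used here. The 5 summary rows were dropped, with 10.3% to 18.4% of reads in no feature. Symbols and lengths were matched for 32608 of 37417 identifiers (GENCODE, GRCm38).

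Counts were tested in R 4.3.3 with edgeR 4.0.16 (quasi-likelihood, TMM, minimum count 10 and total 15, no covariates), p-values adjusted by Benjamini-Hochberg over 15299 genes. DESeq2 1.42.0, limma 3.58.1 and other alternatives were run beside it. The fit was also tested on simulated counts of 15299 genes. It recovered 60 of 200 genes changed 1.5-fold (1 false call) and 132 of 200 changed 2-fold (3 false calls), so changes of these sizes are often missed. The changed genes were drawn from all genes, whose median biological coefficient of variation was 0.158, against 0.235 for the 9 ErbB genes. Recovery for the 9 was not simulated apart. Correlations used log2 CPM with a prior count of 2 and two-sided permutation tests with 100000 resamples. The genes, lists and tests were chosen with earlier results of these data known. Named were the 10 genes, the 2 genes most correlated with each (1 is not reported here), and in each list the gene of smallest p and that of highest level per length. Tumors are separate samples, and p-values of differences set them against the spread between tumors. Those of correlations set r against values shuffled over the tumors of both groups, without holding the group fixed. Spread between guides or between cell derivations is not covered.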

Additional observations from a re-analysis of the deposited data

Results flagged for a closer look

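In 4 of 38 groups of 5 tumors the highest or lowest sample stood apart by Dixon's criterion, where chance gives about 1 in 20 groups, or 1.9. Hbegf had a log2 CPM of 4.09 in sgCda replicate 2, against 4.82 to 5.11 in the other 4 sgCda tumors. The T cell marker score (mean log2 CPM of the list) was 5.60 in sgNT replicate 3, against 5.01 to 5.11 in the other sgNT tumors. The neutrophil marker score was 2.05 in sgCda replicate 3 and lay between 3.34 and 3.72 in the remaining sgCda tumors. Egfr was lowest in the same tumor. The keratinocyte marker score, which rests on 1 gene, was 3.81 in sgNT replicate 4, against 2.05 to 2.33 in the other sgNT tumors. The part of these tumors in the fold changes of the ErbB genes was not tested beyond leaving each of them out.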

How the results depend on the processing

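No gene of all genes tested, of the 9 ErbB genes or of the lists had an adjusted p under 0.05 in any of the 18 alternatives. Unadjusted p under 0.05 was reached by 280 to 747 genes when a tumor was left out, most without sgCda replicate 3 (747, against 382). Erbb2 and Areg kept their sign in all 18 and Tgfa in the 17 that could test it. The log2 fold change of Ereg turned to −0.028 in limma-voom. Leaving out each tumor in turn gave −0.19 to 0.073 for Egfr, −0.21 to −0.11 for Erbb2, −0.038 to 0.11 for Erbb3, 0.50 to 0.91 for Areg, −0.25 to 0.20 for Ereg, −0.046 to 0.19 for Hbegf, −0.50 to −0.036 for Tgfa, −0.11 to 0.37 for Btc and 0.0043 to 0.15 for Nrg1. Signs turned without sgNT replicate 2 for Egfr (0.0072), Ereg (−0.060) and Hbegf (−0.046), without sgNT replicate 5 for Ereg (−0.064) and Hbegf (−0.014), without sgCda replicate 3 for Egfr (0.073), Ereg (−0.25) and Hbegf (−0.035), without sgNT replicate 1 (−0.026) or sgCda replicate 2 (−0.038) for Erbb3, and without sgCda replicate 5 for Btc (−0.11). Without sgCda replicates 3 and 4 together they turned for Egfr (0.00083), Ereg (−0.23), Hbegf (−0.068) and Nrg1 (−0.12). The cause was not tested. The count of gene pairs past the adjusted threshold went from 1 to 0 without the 2 farthest tumors, where fewer tumors enter.

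With the replicate number as a block, 0 genes passed the adjusted threshold and 325 the unadjusted. Areg then had a log2 fold change of 0.63 (edgeR, unadjusted p = 0.0367, adjusted 1.00, against unadjusted p of 0.0103 to 0.245 over its alternatives) and Ereg one of −0.034. Deviations of same-numbered tumors from their group means had correlations of −0.028, −0.024, 0.33, −0.43 and 0.34 over replicates 1 to 5. These values are a description, and whether the numbers pair tumors was not tested. Counts were fewest for Erbb4 (3 over all libraries) and Tgfa (4 to 24 per library), which limits their precision.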
